A study of Mus musculus with 8 samples.

Results

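The neurofilament gene family was followed in 5 genes: Nefl, Nefm and Nefh, which encode the light, medium and heavy neurofilament proteins, Ina, which encodes alpha-internexin, and Prph, which encodes peripherin. They were taken by symbol from the count files, where all 5 were found among 55341 symbols. RNA came from nuclei of cortical GABAergic neurons, the inhibitory neurons of the cortex, of juvenile mice with 1 library per mouse. In every mouse, Cre recombination limited a reporter with a fluorescent nuclear protein to these neurons, and labelled nuclei were collected with a cell sorter. The labels name neither the Cre driver nor the strain, age or sex. All mice were hypothyroid because their mothers received propylthiouracil (PTU), a blocker of thyroid hormone synthesis, during gestation. The PTU group, mice 9 to 12, had no further treatment named in the labels. The 4 mice of the PTU+TH group, 13 to 16, were also given an intraperitoneal injection of thyroid hormone (TH), and their brains were collected 24 h later. No group of mice with normal thyroid function was compared here, so each difference sets hormone-injected hypothyroid mice against hypothyroid mice.

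Neurofilaments are the intermediate filaments of neurons. They fill the axon, set its calibre and so its conduction speed, and the light chain with alpha-internexin forms the filament core from which the long tails of the medium and heavy chains project. During development alpha-internexin appears early, the light and medium chains follow, and the heavy chain appears last, as axons mature. Peripherin belongs mainly to peripheral neurons and to central neurons that project to the periphery. In the cortex, strong neurofilament heavy chain expression marks large projection neurons and fast-spiking parvalbumin neurons.

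The proteins share a central rod, and the coding sequence at the end of the rod shows how close the genes are. The stretches below are 30 bases of each coding sequence, from the GENCODE M21 transcripts (mouse build GRCm38), and the capitals mark the 27 bases of each stretch that encode the same residues in all 5 genes.
Nefl: gctTACAGAAAACTCTTGGAAGGCGAAGAG
Nefm: gcgTACAGGAAACTCCTAGAGGGGGAAGAG
Nefh: gctTACAGAAAGCTCCTGGAAGGCGAAGAG
Ina: gctTACAGGAAGCTCCTGGAAGGTGAAGAG
Prph: accTACAGGAAGCTACTGGAAGGGGAGGAG
Between 22 of the 30 bases (Nefl with Prph) and 28 of the 30 (Nefh with Nefl and with Ina) were identical in pairs of genes. Over whole transcripts the longest run of identical bases shared by 2 members was 35 bases, between Nefm and Prph, and in the other pairs it was 13 to 23 bases. These runs compare transcripts in the direction of transcription only, and reads longer than them can be told apart between members in that direction. They leave out the bases that Nefl shares with the Nefm gene on the opposite strand, which are described below. The read length is not given in the sources used here.

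The tail sets the heavy chain apart. Its tail repeats the residues lysine, serine and proline, the sites that proline-directed kinases phosphorylate in axons. The Nefh coding sequence held 51 codon triplets for lysine, serine and proline, the Nefm-201 coding sequence held 4, and those of Nefl, Ina and Prph held 0. The stretch below, coding bases 1561 to 1680 of Nefh, has 7 of these triplets in capitals.
Nefh: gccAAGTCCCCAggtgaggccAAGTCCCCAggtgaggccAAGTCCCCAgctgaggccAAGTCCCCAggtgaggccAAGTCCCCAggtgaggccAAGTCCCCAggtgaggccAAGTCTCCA
The repeat is near-identical within the gene, with a longest repeated stretch of 121 bases in the Nefh transcript. A short read from it can be placed at several points of Nefh, and whether such reads were counted is not given in the sources used here.

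Of the 5 genes, only Nefh was called in edgeR's quasi-likelihood test, and it was higher in PTU+TH. Nefm, Ina and Prph were also fitted higher in PTU+TH but were not called. Nefl was listed at 0 in each of the 8 libraries and could not be tested. Over all 17355 genes tested, 2.12% were called at an adjusted p under 0.05, 1.49% were called higher in PTU+TH and 0.634% lower. Levels are given in CPM, the count relative to a library size adjusted by the trimmed mean of M values and scaled to 1e6. A log2 fold change sets PTU+TH over PTU and is given with its standard error (SE). The median log2 fold change over all genes tested was -0.01. Because each library pools many nuclei, more cells that express a gene and more RNA of it per nucleus cannot be told apart. Nothing in the labels says whether mice of a group shared a litter, so p-values measure the spread between these 8 mice.

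Nefh (ENSMUSG00000020396.8, chromosome 11, 4938754 to 4948064, minus strand) shares no base with another annotated gene. Its level was 10.7, 10.7, 9.65 and 10.4 CPM in PTU mice 9 to 12 and 13.9, 16.9, 20.9 and 17.0 CPM in PTU+TH mice 13 to 16. Every PTU+TH mouse was above every PTU mouse, which was the case for 4.68% of all genes tested, while 4.03% had the reverse. The mean rose from 10.3 ± 0.49 to 17.2 ± 2.88 CPM (mean ± SD, n = 4 each), a log2 fold change of 0.73 with an SE of 0.14 and a 95% interval from 0.42 to 1.04 (edgeR adjusted p = 0.0168). By unadjusted p it stood at place 191 among the genes tested. The level rested on 195 to 294 counts per library in PTU and on 330 to 493 in PTU+TH.

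The SD of Nefh was 4.71% of the mean in PTU and 16.8% in PTU+TH, and the difference between these spreads was not tested. Counting error alone gives 5.83% to 7.16% for a single PTU library and 4.50% to 5.50% for a single PTU+TH library. Mouse 13 was lowest and mouse 15 highest among the hormone-injected mice.

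**Figure D1:**
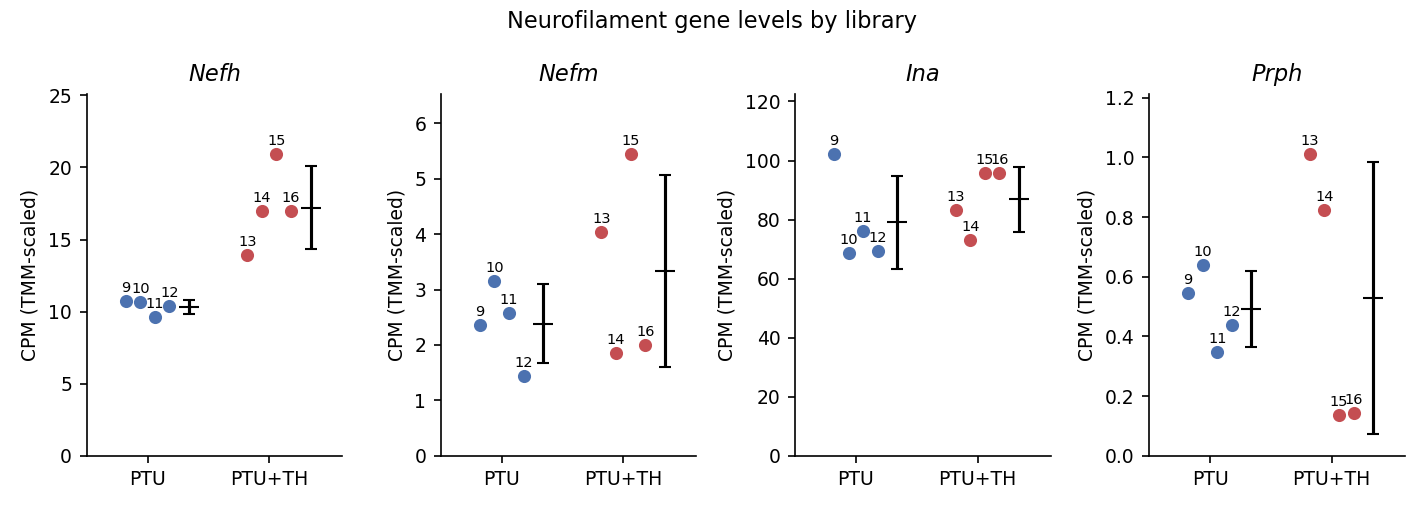
Level of each measured gene in CPM (vertical axes, from 0, a different scale per gene) in the PTU and PTU+TH libraries. Points are single mice with their numbers, and the black mark and bar are the mean ± SD of 4 mice. The 4 PTU+TH mice sit above the 4 PTU mice for Nefh, while the groups overlap for Nefm, Ina and Prph.

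The rise of Nefh held its direction in each of the 19 alternative analyses, and it lost the call in 6 of them. Among fits that left out 1 library, the adjusted p was above 0.05 without PTU+TH mouse 14 (edgeR adjusted p = 0.052), mouse 15 (0.0695) or mouse 16 (0.0543), with log2 fold changes of 0.74, 0.62 and 0.74. PTU+TH mice 15 and 16 had 0 counts of 4 Y-linked genes, against sums of 7960 to 11548 in the other 6 mice. The labels give no sex. Every PTU mouse had these counts, so their lack is partly confounded with the hormone and cannot be fully told apart from it. In the 6 libraries with Y-linked counts PTU+TH mice 13 and 14 still lay above the 4 PTU mice, with a log2 fold change of 0.58 (edgeR adjusted p = 0.259). With Y-linked counts as a covariate the log2 fold change was 0.58 (edgeR adjusted p = 0.173). The remaining loss was with library totals as the only scaling (edgeR adjusted p = 0.0602).

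**Figure D2:**
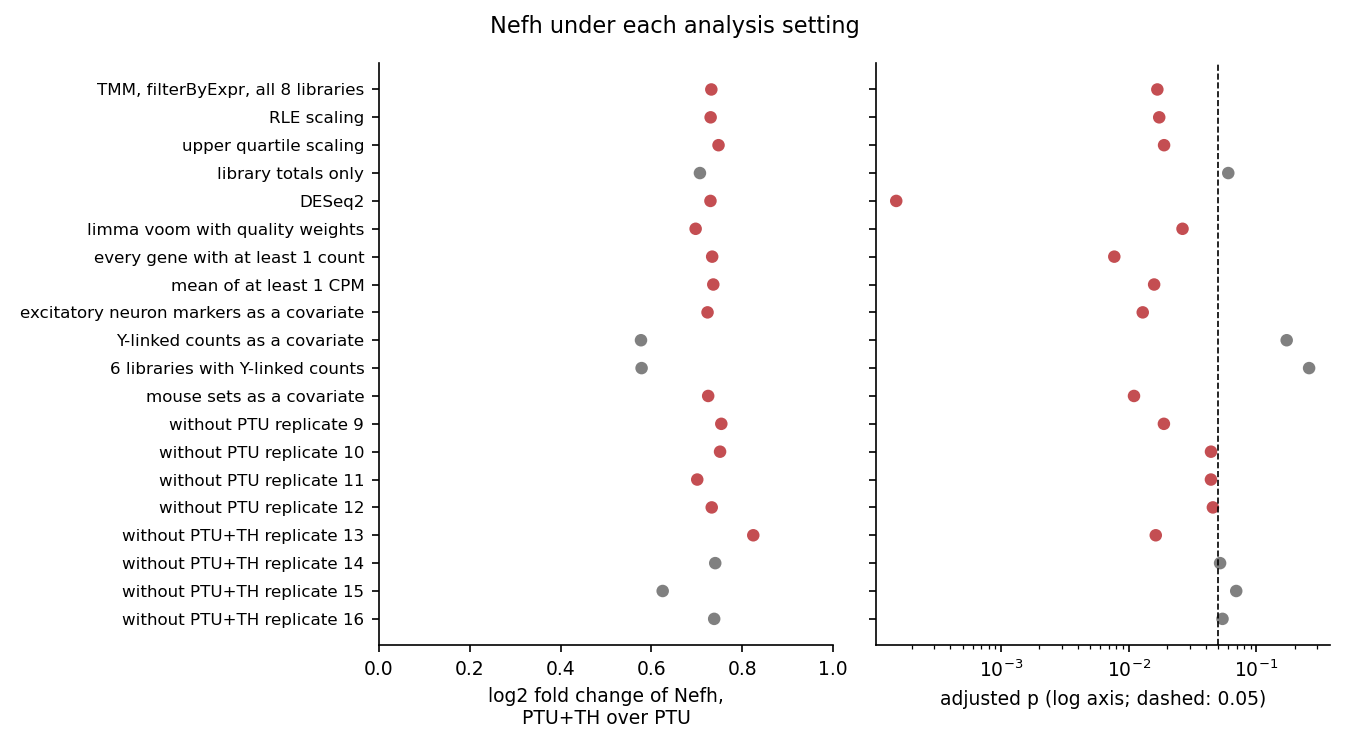
Log2 fold change of Nefh (left, axis from 0 to 1) and its adjusted p (right, log axis, dashed line at 0.05) in the main analysis, at the top, and under each of 19 alternatives. Red points are called and grey points are not. The fold change stays between 0.58 and 0.82, and 6 alternatives lie beyond the dashed line.

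Within each group the libraries fell into pairs, mice 9 and 10 and mice 11 and 12 in PTU and mice 13 and 14 and mice 15 and 16 in PTU+TH, and the labels do not say what separates them. The chi-square statistic per degree of freedom was 8.89 and 18.6 within the PTU pairs and 29.7 to 72.6 between them, and 8.38 and 10.6 within the PTU+TH pairs and 16.4 to 24.8 between them. The data do not tie a pair of one group to a pair of the other, so no contrast within matched pairs is drawn. Both PTU+TH pairs lay above both PTU pairs in Nefh.

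Excitatory projection neurons also express Nefh, so their markers were measured beside it. The pan-GABAergic markers summed to between 2242 and 2686 CPM in PTU and between 2125 and 2325 CPM in PTU+TH, with Dlx1 and Dlx6 listed at 0. Other annotated genes cover the whole body of Dlx1 and Dlx6, and of Neurod1 and Cox6a2 below, so these values are not read as absence. The 13 excitatory neuron markers, of which Neurod1 was listed at 0 and 12 were tested with 0 called, summed to between 494 and 562 CPM in PTU and between 457 and 575 CPM in PTU+TH. Most of this sum was Camk2a (227 ± 31.1 and 213 ± 10.3 CPM) and Cux2 (174 ± 33.4 and 174 ± 16.7 CPM, mean ± SD, n = 4 each, first PTU and then PTU+TH), so it says little about the other excitatory markers. Slc17a7, a vesicular glutamate transporter gene of excitatory neurons, stood at 35.2 ± 18.6 and 38.5 ± 15.6 CPM (mean ± SD, n = 4 each). With the mean log2 CPM of the 12 tested excitatory markers as a covariate the Nefh log2 fold change was 0.72 (edgeR adjusted p = 0.0129). The 6 PV class markers, Cox6a2 listed at 0, summed to between 3147 and 5664 CPM in PTU and between 3913 and 5057 CPM in PTU+TH, but most of this sum was Erbb4 (4189 ± 1198 and 3993 ± 490 CPM, mean ± SD, n = 4 each), which other GABAergic neurons also express. Pvalb itself, the defining marker, was at 1.80 ± 0.84 and 2.54 ± 0.56 CPM (mean ± SD, n = 4 each). Syt2, a synaptotagmin gene of PV neurons, was the 1 called among the 5 tested, with 8.38 ± 2.32 and 18.5 ± 2.40 CPM (mean ± SD, n = 4 each; edgeR adjusted p = 0.00603). The 5 tested had 3 positive and 2 negative log2 fold changes, with Kcnc1, a potassium channel gene of fast-spiking neurons, at 193 ± 26.7 and 244 ± 29.9 CPM (mean ± SD, n = 4 each; edgeR adjusted p = 0.228). Of the markers of the other GABAergic classes, 1 of 6 tested was called in the LAMP5 class (Gabrd, higher), 1 of 8 in the SST class (Calb1, lower) and 1 of 7 in the VIP class (Htr3a, lower). These counts, and the 1 in the PV class, stand beside 2.12% called among all genes tested. The other 5 LAMP5 class markers tested had negative log2 fold changes, from -0.75 (Ndnf) to -0.05 (Kit). The SST class had 3 positive and 5 negative log2 fold changes and the VIP class 1 positive and 6 negative. Gabrd, a GABA receptor subunit gene, was at 37.1 ± 5.22 and 97.9 ± 6.63 CPM, Calb1, which encodes a calcium-binding protein, at 198 ± 22.7 and 119.8 ± 12.3 CPM, and Htr3a, a serotonin receptor gene, at 7.82 ± 2.38 and 3.63 ± 0.90 CPM (mean ± SD, n = 4 each). Positive log2 fold changes were found in 6 of 7 oligodendrocyte markers tested (median 0.58), 6 of 7 microglia markers (median 0.50), 5 of 7 astrocyte markers (median 0.15), 3 of 4 oligodendrocyte precursor markers (median 0.09), 1 of 7 endothelium markers (median -0.17) and 8 of 12 excitatory neuron markers (median 0.05), with 0 called in these lists. PTU+TH mouse 15, the highest in Nefh, was first in the excitatory neuron, astrocyte, oligodendrocyte, oligodendrocyte precursor and microglia sums. Apart from the fit with excitatory markers as a covariate, the part of these markers in the Nefh result was not tested. The marker genes named here were chosen after their values were seen.

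Ina (ENSMUSG00000034336.3, chromosome 19, 47014698 to 47025327, plus strand), the early-expressed core filament protein, was the most abundant of the 4 members with counts. Its level was 102.3, 68.6, 76.2 and 69.3 CPM in PTU mice 9 to 12 and 83.4, 73.0, 95.8 and 95.7 CPM in PTU+TH mice 13 to 16. The groups overlapped. PTU mouse 9 was the highest of all 8 libraries, PTU mice 10 and 12 were the lowest, and PTU mouse 11 lay above PTU+TH mouse 14. The means were 79.1 ± 15.8 and 86.9 ± 11.0 CPM (mean ± SD, n = 4 each), with a log2 fold change of 0.14, an SE of 0.13 and a 95% interval from -0.16 to 0.43 (edgeR adjusted p = 0.781). Across fits that left out 1 library the log2 fold change ran from 0.08 without PTU mouse 10 (edgeR adjusted p = 0.917) to 0.29 without PTU mouse 9 (edgeR adjusted p = 0.172). In the 6 libraries with Y-linked counts it was -0.02 (edgeR adjusted p = 0.998). Ina shares 456 bases at its start with Nt5c2, which runs the other way, and 85.9% of its exon bases are free of other genes.

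Nefm (ENSMUSG00000022054.11, chromosome 14, 68082590 to 68124846, minus strand), the medium chain, was low. Its level was 2.37, 3.16, 2.57 and 1.44 CPM in PTU mice 9 to 12 and 4.05, 1.86, 5.45 and 2.00 CPM in PTU+TH mice 13 to 16, from 33 to 120 counts per library. PTU+TH mice 13 and 15 were above all PTU mice and mice 14 and 16 were inside the PTU range. The means were 2.39 ± 0.71 and 3.34 ± 1.73 CPM (mean ± SD, n = 4 each), with a log2 fold change of 0.48, an SE of 0.36 and a 95% interval from -0.31 to 1.26 (edgeR adjusted p = 0.677). This interval holds the change of Nefh, so a change of that size in Nefm is not excluded. Without PTU+TH mouse 15 the log2 fold change was 0.14 (edgeR adjusted p = 0.963).

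The order of mice in Nefm ran with that of astrocyte markers and, in part, of excitatory neuron markers and other non-neuronal markers. The 8 astrocyte markers, Gfap listed at 0 and 7 tested with 0 called, summed to between 129 and 249 CPM in PTU and between 131 and 377 CPM in PTU+TH. Another annotated gene covers all of Gfap, so its 0 is not read as absence. Mice 15, 13 and 10 took places 1, 2 and 3 in both Nefm and the astrocyte sum, and mice 14 and 12 took places 7 and 8 in both. Other sums followed a like order. Mouse 15 was also first in the excitatory neuron, oligodendrocyte, oligodendrocyte precursor and microglia sums and second in the endothelium sum, and mice 12 and 14 took the last 2 places in the oligodendrocyte, precursor and endothelium sums. In the excitatory neuron sum mice 10, 13, 12 and 14 took places 3, 4, 6 and 8. Mice 11, 16 and 9 took places 2, 5 and 7 there, against 4, 6 and 5 in Nefm. With the excitatory markers as a covariate the Nefm log2 fold change was 0.34 (edgeR adjusted p = 0.629). The astrocyte glutamate transporter gene Slc1a2, the main part of the astrocyte sum, was among the 3 genes whose profile was closest to Nefm, at 121 ± 24.1 CPM in PTU against 171 ± 71.9 CPM in PTU+TH (mean ± SD, n = 4 each). Whether other cells in the sort gave these Nefm counts was not tested.

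Nefl (ENSMUSG00000022055.7, chromosome 14, 68083863 to 68089095, plus strand), the light chain, was listed at 0 in all 8 libraries. In the GENCODE M21 annotation, whose symbols are the same 55341 as those of the files, the whole Nefl gene lies inside the Nefm gene on the opposite strand. This comes from 1 long Nefm transcript, Nefm-202, which runs from the Nefm start across Nefl, while the shorter Nefm-201 ends before it. Among 1266 protein-coding genes that lie wholly inside another gene on either strand, 1265 (99.9%) were at 0 in all libraries, against 21.5% of 11728 that share no base with another gene. A count limit of 3 would be 0.103 to 0.148 CPM per library, but it limits the reads assigned to Nefl and not its expression. The 0 is thus not read as absence of the light chain. All exon bases of Nefm-201 are free of other genes, so the Nefm counts can come from Nefm alone, but reads of the other strand cannot be told apart if strand was not used.

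**Figure D3:**
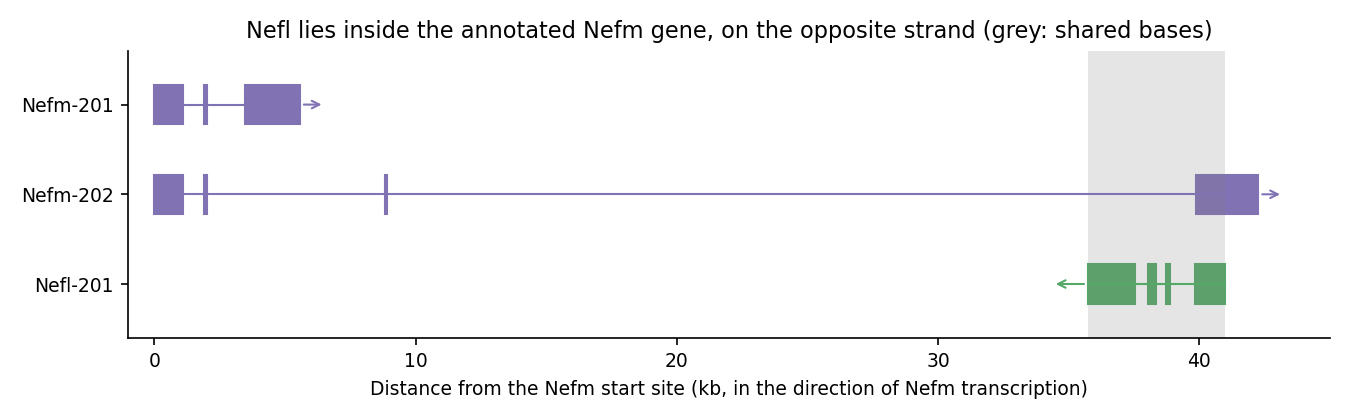
Annotated transcripts of Nefm and Nefl, plotted by distance in kb from the Nefm start site in the direction of Nefm transcription. Boxes are exons, lines are introns, arrows give the direction of transcription, and grey marks the bases that the 2 genes share. All of Nefl lies inside Nefm-202 and beyond the end of Nefm-201.

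Prph (ENSMUSG00000023484.14, chromosome 15, 99055174 to 99058978, plus strand), the peripheral filament gene, was close to the detection limit. It had 15, 17, 7 and 10 counts in PTU mice 9 to 12 and 24, 24, 3 and 3 counts in PTU+TH mice 13 to 16. The PTU+TH mice split, with mice 13 and 14 above all PTU mice and mice 15 and 16 below them. The means were 0.49 ± 0.13 and 0.53 ± 0.46 CPM (mean ± SD, n = 4 each), with a log2 fold change of 0.12, an SE of 0.60 and a 95% interval from -1.18 to 1.42 (edgeR adjusted p = 0.976). Mice 15 and 16 were also the libraries without Y-linked counts, and in the 6 libraries with them the log2 fold change was 0.88 (edgeR adjusted p = 0.705).

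Per kilobase of merged exons, the level among the 4 members with counts was highest for Ina, then Nefh, Nefm and Prph. In PTU it was 24.4 ± 4.88 CPM per kb for Ina, 2.59 ± 0.12 for Nefh, 0.41 ± 0.12 for Nefm and 0.25 ± 0.06 for Prph (mean ± SD, n = 4 each). In PTU+TH it was 26.8 ± 3.39, 4.31 ± 0.72, 0.58 ± 0.30 and 0.26 ± 0.23 CPM per kb in the same order. The ranges of mean ± SD of Ina, Nefh and Nefm lay apart from each other in both groups, while those of Nefm and Prph overlapped in both. Per kilobase of the whole gene body, Nefm fell to 0.056 CPM per kb and Prph to 0.13 CPM per kb in PTU, which turned their order round. The Nefm body is 42.3 kb through Nefm-202 and its merged exons cover 5.78 kb. Whether reads from introns were counted is not given in the sources used here, so neither length is known to be the right one.

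Ratios between members within a library do not depend on library scaling, and they tested whether Nefh changed by a different amount than the others. Nefh counts per Ina count were 0.105, 0.155, 0.127 and 0.150 in PTU mice 9 to 12 and 0.167, 0.232, 0.219 and 0.178 in PTU+TH mice 13 to 16. All 4 PTU+TH mice were above all 4 PTU mice. The mean log2 ratio of Nefh to Ina rose from -2.92 ± 0.26 to -2.34 ± 0.23 (mean ± SD, n = 4 each), a difference of 0.57 (exact permutation test, two-sided, p = 0.0286, the smallest that 70 arrangements allow, and 0.171 after adjustment over the 6 pairs). No pair passed after adjustment, which this design allows only if at least 4 of the 6 pairs reach the smallest p together. The difference was -0.33 for Nefm to Nefh and 0.24 for Nefm to Ina (exact permutation test, two-sided, p = 0.429 and 0.571, both 0.571 adjusted), with the groups overlapping in both. In the 3 ratios to Prph the differences ranged from 0.57 to 1.15, with SDs of 1.74 to 1.86 in PTU+TH. A larger change of Nefh than of Nefm was thus not shown.

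**Figure D4:**
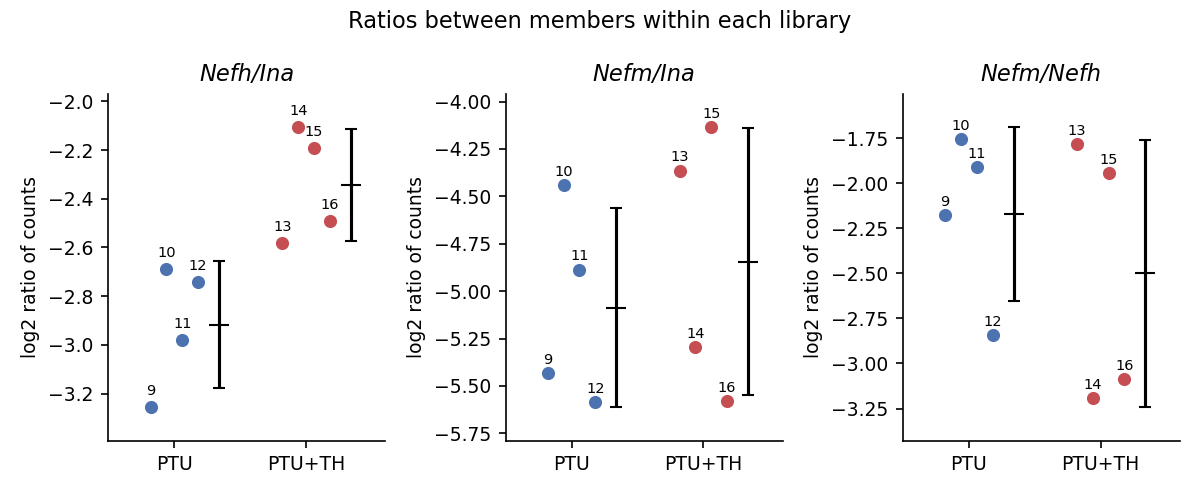
Log2 ratio of counts between pairs of members (vertical axes, a different scale per pair) in PTU and PTU+TH libraries. Points are single mice with their numbers, and the black mark and bar are the mean ± SD of 4 mice. The Nefh to Ina ratio is higher in each PTU+TH mouse than in any PTU mouse, and the other 2 ratios overlap.

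Genes that work with neurofilaments were compared in 6 lists, and none of their members was called. The lists hold 90 genes, of which 78 were tested, 39 with a positive and 39 with a negative log2 fold change, and the median was -0.01. This count is near the 2.12% called among all genes tested, so it is no result about these lists. Where a pair of levels is given for a gene, the first is PTU and the second PTU+TH. By edgeR, 5 of the 78 (6.41%) had an unadjusted p under 0.05 (Arhgef28, Camk2b, Hspb8, Iffo1 and Uchl1), against 12.8% of all genes tested. DESeq2 called 2 (2.56%, Camk2b and Hspb8), against 4.63% of all genes to which it gave an adjusted p, and limma voom called 0, against 2.43%. The groups did not overlap in 3 of the 78 (3.85%), against 8.71% of all genes tested. The 6 list genes Cdk5r2, Gfap, Ppp2ca, Stub1, Synm and Tubb3 were listed at 0, and other annotated genes cover the whole body of each, so these values are not read as absence.

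Of the other intermediate filament genes, 9 of 15 were tested, 4 positive and 5 negative, with a median log2 fold change of -0.05. The nuclear lamins Lmnb2 and Lmnb1 had means of 66.7 ± 3.03 and 43.6 ± 3.22 CPM in PTU, against 64.4 ± 3.66 and 41.0 ± 3.47 CPM with hormone (mean ± SD, n = 4 each). Iffo1, a member of the intermediate filament family, stood at 57.1 ± 5.76 and 66.9 ± 4.83 CPM (mean ± SD, n = 4 each; edgeR adjusted p = 0.327). Vim and Nes, filament genes of glia and progenitors, had means of 4.2 ± 2.47 and 2.27 ± 2.45 CPM in PTU, against 3.16 ± 1.5 and 2.55 ± 1.77 CPM in PTU+TH (mean ± SD, n = 4 each). They are named here after their values were seen.

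All 13 genes of filament linkers and axonal transport were tested, 8 positive and 5 negative, with a median log2 fold change of 0.01 and a range from -0.18 to 0.12. Macf1 and Dst, large linkers between filament systems, stood at 676 ± 118 and 493 ± 81.3 CPM in PTU and 733 ± 47.7 and 517 ± 31.3 CPM in PTU+TH (mean ± SD, n = 4 each). Kif1a, a fast axonal motor, stood at 701 ± 34.8 and 661 ± 29.2 CPM (mean ± SD, n = 4 each). Kif5a, the kinesin most tied to neurofilament transport, had a log2 fold change of -0.03 (edgeR adjusted p = 0.952). Dctn1, a subunit of the dynactin complex of the retrograde motor, was lower in each PTU+TH mouse than in any PTU mouse, at 158 ± 8.73 and 140 ± 5.93 CPM (mean ± SD, n = 4 each), without passing the test (edgeR adjusted p = 0.402). Kif5a and Dctn1 were chosen after their values were seen.

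Of the 20 kinase and phosphatase genes, 18 were tested, 9 positive and 9 negative, with a median log2 fold change below 0.01 in size. Cdk5, the kinase best known for the lysine-serine-proline repeats, stood at 145 ± 10.8 and 150 ± 22.8 CPM (mean ± SD, n = 4 each; log2 change 0.05 with an edgeR adjusted p = 0.927), and it was chosen after its values were seen. The stress kinase gene Mapk10 stood at 782 ± 172 and 702 ± 84.5 CPM and the calcineurin subunit gene Ppp3ca at 632 ± 91.1 and 704 ± 102 CPM (mean ± SD, n = 4 each). Camk2b, a calcium-dependent kinase subunit, averaged 503 ± 18.3 CPM in PTU against 612 ± 47.2 CPM in PTU+TH (mean ± SD, n = 4 each; log2 change 0.28 with an edgeR adjusted p = 0.32), with all 4 PTU+TH mice above the PTU mice. DESeq2 called it (DESeq2 adjusted p = 0.0299).

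In the list of filament turnover and neurofilament mRNA binding, 10 of 12 genes were tested, 4 positive and 6 negative, with a median log2 fold change of -0.12. Hspb8, a small heat shock protein gene, had the smallest adjusted p of the 6 lists, at 5.25 ± 0.79 CPM in PTU against 2.79 ± 1.17 CPM in PTU+TH (mean ± SD, n = 4 each; log2 change -0.90, with SE 0.27 and edgeR adjusted p = 0.131). It passed with DESeq2 (DESeq2 adjusted p = 0.0406), with the excitatory markers as a covariate (edgeR adjusted p = 0.0438) and after PTU+TH mouse 14 was left out (edgeR adjusted p = 0.0317). Trim2, a ubiquitin ligase gene that acts on the light chain, stood at 489 ± 75.1 and 421 ± 32.3 CPM (mean ± SD, n = 4 each; edgeR adjusted p = 0.575). Uchl1, a neuronal ubiquitin hydrolase gene, was lower in all 4 PTU+TH mice, at 154 ± 5.60 and 133 ± 6.02 CPM (mean ± SD, n = 4 each; edgeR adjusted p = 0.257), and its antisense partner shares part of its exons. Hspb8 was chosen after its values were seen.

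Microtubule genes had 16 of 18 tested, 7 positive and 9 negative, with a median log2 fold change of -0.03. The 3 most abundant, Dclk1, Map1b and Map2, which encode microtubule-binding proteins of growing and mature processes, had means of 751 ± 128, 708 ± 72.7 and 629 ± 61.3 CPM in PTU, against 864 ± 97.1, 693 ± 109 and 581 ± 41.6 CPM with hormone (mean ± SD, n = 4 each). Tuba4a, an alpha-tubulin gene of mature neurons, stood at 51.4 ± 23.4 and 61.7 ± 9.78 CPM (mean ± SD, n = 4 each; edgeR adjusted p = 0.79). It is named because it passed without PTU mouse 9 (log2 change 0.62 with an edgeR adjusted p = 0.0492). All 12 genes of the axonal spectrin and ankyrin skeleton, which holds the axon initial segment and nodes, were tested, 7 positive and 5 negative, with a median of 0.04 and a range from -0.14 to 0.27. Ank3, the ankyrin of the axon initial segment, Ank2 and Sptan1 had means of 1165 ± 341, 1198 ± 268 and 745 ± 72.1 CPM in PTU, against 1208 ± 128, 1165 ± 137 and 714 ± 70.3 CPM with hormone (mean ± SD, n = 4 each).

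**Figure D5:**
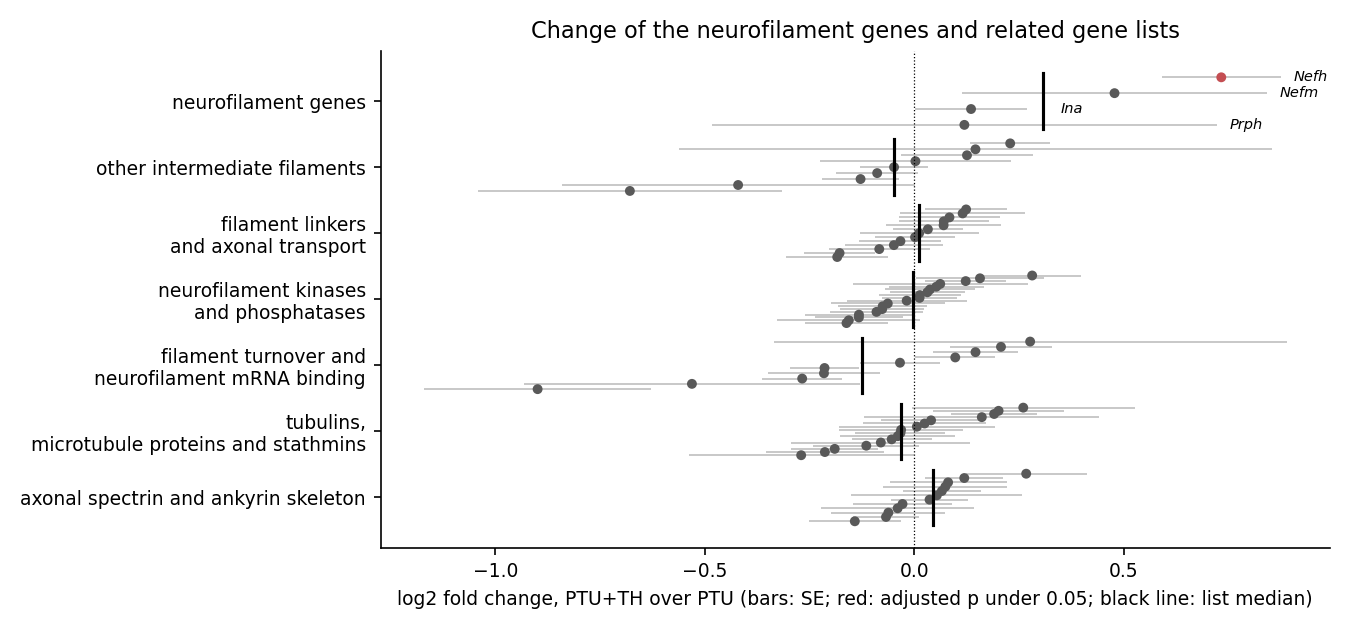
Log2 fold change (PTU+TH over PTU, horizontal axis) of each tested gene in the neurofilament family, at the top, and in 6 lists of related genes. Points are genes with their SE, black lines are list medians and red marks an adjusted p under 0.05. Nefh is the only red point, and the list medians below it lie between -0.12 and 0.04.

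The genes next to Nefh on the chromosome were not called. Thoc5, which ends 9886 bases from Nefh and encodes an mRNA export factor, stood at 67.4 ± 4.66 and 63.7 ± 7.23 CPM (mean ± SD, n = 4 each; log2 change -0.08 with an edgeR adjusted p = 0.834). Ap1b1, an adaptor subunit gene 38759 bases away on the other side, stood at 162 ± 11.5 and 157 ± 9.57 CPM (mean ± SD, n = 4 each; log2 change -0.05 with an edgeR adjusted p = 0.921). Next to Ina, Nt5c2 stood at 158 ± 15.7 and 145 ± 11.1 CPM (mean ± SD, n = 4 each), and Pcgf6, a Polycomb subunit gene, was higher in each PTU+TH mouse at 147 ± 4.88 and 173 ± 12.9 CPM without passing the test (mean ± SD, n = 4 each; edgeR adjusted p = 0.263). On either side of Nefl and Nefm, Dock5 stood at 5.23 ± 1.30 and 8.55 ± 3.72 CPM (mean ± SD, n = 4 each; edgeR adjusted p = 0.277) and Adam7 was too low to be tested. Of the neighbours of Prph, Tuba1c was too low to be tested, and Troap stood at 0.50 ± 0.18 and 0.39 ± 0.20 CPM (mean ± SD, n = 4 each; edgeR adjusted p = 0.854).

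Likeness of profile was measured as the root mean square difference of log2 CPM over the 8 libraries after each gene was centred on its own mean, among 9797 or 9798 tested genes whose mean reached 10 CPM. The group difference was left in these profiles, so genes near a member were picked in part for a like change. Their p-values are thus no separate support. Nearest to Nefh were Gm37494, Lgi3 and Vegfc, with differences of 0.14 each on the log2 scale. Lgi3, which encodes a secreted leucine-rich protein of neurons, stood at 59.9 ± 1.76 CPM in PTU against 91.5 ± 6.25 CPM in PTU+TH (mean ± SD, n = 4 each; edgeR adjusted p = 0.00149). Vegfc, a vascular growth factor gene, stood at 10.9 ± 0.56 and 18.1 ± 1.15 CPM (mean ± SD, n = 4 each; edgeR adjusted p = 0.00569). Gm37494, a gene model without a proper name, stood at 22.2 ± 0.81 and 30.9 ± 4.68 CPM (mean ± SD, n = 4 each; edgeR adjusted p = 0.0598). Nearest to Ina were Irs2, Ptrh2 and Syt13, with differences of 0.07 to 0.08, and nearest to Nefm were Itpr2, Slc1a2 and Arpp21, with differences of 0.18 to 0.24. The 3 nearest to Prph, Impdh2, Snrnp27 and Zfp786, were 0.46 to 0.54 away.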

How the data were processed

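Nuclear RNA of sorted nuclei was turned into cDNA with SMART-Seq v4 and into libraries with Nextera XT, read single-end on a NextSeq instrument, per the labels' protocols. The deposited files hold raw counts per gene symbol, made by the authors. Bowtie2 2.5.3 and the builds mm10 and GRCm38 are named in the submitters' processing notes, while the counting program, annotation, use of strand and handling of introns are not given in the sources used here. Library totals ran from 21762810 to 29084071 counts, and 22834 to 23361 genes had a count. The chi-square statistic per degree of freedom between libraries of a group was 8.38 to 72.6, so none repeated another. Rows that name no gene numbered 0.

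Groups came from the sample titles. Counts were tested with edgeR 4.0.16 (R 4.3.3, filterByExpr, TMM scaling, robust quasi-likelihood fit with the group as only term), two-sided, with Benjamini-Hochberg adjustment over 17355 genes, of which 368 were called (258 higher, 110 lower). Scripts were tested on simulated data. SE is the size of the log2 fold change over the root of F. Ratios were tested with exact permutation tests. Profiles used log2 CPM with a prior count of 2. Coordinates and transcripts are from GENCODE M21. The members and lists were chosen with earlier results of these data known. Genes named were the 5 members, list genes that were called and the 3 most abundant uncalled genes of each list, the protein-coding neighbours and the 3 nearest profiles of each member. Some list genes are counted but not reported by name here. Other named genes are marked as chosen after their values were seen. Alternatives covered scaling, the tool (DESeq2 1.42.0, limma 3.58.1), the filter, covariates and leaving out libraries.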

Additional observations from a re-analysis of the deposited data

How the results depend on the processing

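No paired analysis was possible because no mouse number occurs in both groups. Against 368 genes called (70.1% of them higher), DESeq2 called 756 (61.4% higher), the fit with Y-linked counts as a covariate 129 (82.2% higher), the 6 libraries with Y-linked counts 58 (89.7% higher) and the fit with mouse sets as a covariate 642 (66.7% higher). The 6 libraries hold fewer mice, and the cause was not tested for the other 3. The mouse sets (9, 10, 13 and 14 against 11, 12, 15 and 16) match pairs of the 2 groups, which the data do not bear out: deviations from the group mean (log2 CPM) correlated across 9798 genes at -0.36 to 0.41 in the same set and -0.31 to 0.27 between sets. Fits that each left out a library called from 182 genes, without PTU+TH mouse 15, to 499, without PTU mouse 9.

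Nefh was at a log2 fold change of 0.71 with library totals only (edgeR adjusted p = 0.0602), 0.577 with Y-linked counts as a covariate and 0.578 in the 6 libraries, and between 0.62 and 0.82 across fits that left out a library (edgeR adjusted p from 0.0163 to 0.0695). Ina turned to -0.018 with Y-linked counts as a covariate and to -0.017 in the 6 libraries. Prph was at 0.877 with Y-linked counts as a covariate and at 0.88 in the 6 libraries. It turned to -0.24 with limma voom and to -0.15 with mouse sets as a covariate, and ran from -0.36 to 0.43 across fits that left out a library, with -0.01 without PTU mouse 11, -0.36 without PTU+TH mouse 13 and -0.18 without PTU+TH mouse 14. DESeq2, which gave Prph no adjusted p, and the filter on a mean of 1 CPM, which removed it, have no value for Prph. Nefm kept its direction and stayed uncalled in all 19 alternatives (log2 fold change 0.14 to 0.68). The 6 ratios kept their direction and stayed uncalled in all 9 alternatives each, but their size moved when 1 library was left out. The difference ran from 0.46 to 0.65 for Nefh to Ina, -0.57 to -0.10 for Nefm to Nefh and 0.01 to 0.49 for Nefm to Ina. In the ratios to Prph it ran from 0.58 to 1.74 for Nefh, 0.07 to 1.45 for Nefm and 0.06 to 1.09 for Ina. Prph rested on 3 to 24 counts per library, where counting error is 20.4% to 57.7%. For Nefm it is 9.13% to 17.4%, below the SD between mice of 29.9% in PTU and 51.8% in PTU+TH.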
